A study of Zea mays with 12 samples.

Results

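The aleurone and the starchy endosperm of the maize inbred line B73 were compared through 6 of the 12 RNA-seq libraries of the series, 3 of B73 aleurone set against 3 of B73 starchy endosperm. These 6 were taken by their labels. The other 6 libraries, 3 of nkd aleurone and 3 of nkd starchy endosperm, served as a second pair of the same 2 cell types. All kernels were collected 15 days after pollination from plants grown in one field season. B73 is the wild type, and nkd (naked endosperm) is a mutant backcrossed to B73 in the genes Nkd1 and Nkd2, which encode zinc finger transcription factors. Cells were cut by laser from paraffin sections of fixed kernels, and their RNA was amplified with T7 RNA polymerase before sequencing, per the labels' protocols. Amplification of this kind can change the proportions of transcripts and weights their 3' ends. The sources used here give no number of kernels or ears per library, and p-values therefore cover the variation among libraries, whatever its origin.

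Both tissues descend from the same fertilised central cell. The aleurone covers the endosperm as its outermost cell layer, lives on in the dry seed, stores oil, protein and phytate, and makes pigment in coloured genotypes. The starchy endosperm lies inside it, fills with starch granules and with protein bodies made of zeins, the prolamin storage proteins of maize, and dies as the seed matures.

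No single gene passed the test across all 6 libraries, while many genes stood apart in every one of them. The oleosins ole1 and ole17, the inositol phosphate synthase mips2, the epidermal transcription factor ocl1 and the sucrose synthases sus1 and sus2 were higher in all 3 aleurone libraries. The sucrose synthase sh1, the ADP-glucose pyrophosphorylase subunits sh2 and bt2, the starch synthase ss1 and the zein regulators o2 and PBF were lower in all 3. In edgeR's quasi-likelihood test with Benjamini-Hochberg adjustment, 0 of 25499 genes (0.0%) had an adjusted p under 0.05. The lowest adjusted p was 0.163, while 4195 genes had an unadjusted p under 0.05. The Wald test of DESeq2 called 1395 genes (5.47%) on the same reads, 728 higher (2.86%) and 667 lower (2.62%) in aleurone. limma voom with library weights called 55 genes (0.216%), 26 higher (0.102%) and 29 lower (0.114%). The groups did not overlap in 6370 genes (25.0%), with all 3 aleurone libraries above in 4128 (16.2%) and below in 2242 (8.79%). In tissue pieces of many cells, fewer cells of a type and less RNA per cell cannot be told apart.

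One starchy endosperm library lay close to the aleurone libraries. Starchy endosperm replicate 2 correlated with the 3 aleurone libraries at 0.946, 0.953 and 0.927 across genes (Pearson's r of log2 levels, which share all genes and their abundance range), against 0.927 and 0.852 with starchy endosperm replicates 1 and 3. Those replicates correlated with each other at 0.861. Every other B73 library had its lowest correlation with starchy endosperm replicate 3, which stood at 0.816, 0.821 and 0.808 with the aleurone libraries. Starchy endosperm replicate 1 was also nearer to each aleurone library (0.9, 0.889 and 0.864) than to replicate 3. With replicate 2 left out, edgeR called 421 of 26446 genes (1.59%), 321 higher (1.21%) and 100 lower (0.378%) in aleurone. Replicate 2 was picked out for its likeness to aleurone, so leaving it out widens the difference by construction and these calls are not independent evidence. They also ended when any 1 aleurone library was left out too, or when the flow cell entered the model as a block, with 0 calls in each of those fits (4880, 5024, 4316 and 5460 genes at an unadjusted p under 0.05). DESeq2 on all 6 libraries called 278 of the 421 genes, which is 66.0% of them and 19.9% of its own 1395. Below, "without replicate 2" always means without that starchy endosperm library, and an adjusted p is edgeR's unless another tool is named. Among the genes named below, the adjusted p over all 6 libraries was at least 0.163.

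Depth differed between libraries by several fold, and the shallow ones stood in both groups. Aleurone replicates 1, 2 and 3 held 64000867, 9929030 and 63053500 reads, against 17545156, 57706902 and 9570991 in starchy endosperm. Levels are therefore given in CPM, reads of a gene per unit of library size after scaling by TMM factors over all 12 libraries. They are not comparable between genes because transcript lengths were not used. Reduced by calculation to 9570991 reads each, the aleurone libraries held 25980, 27049 and 27260 genes with a read, against 23697, 25652 and 22174 in starchy endosperm. More genes were seen in every aleurone library than in any starchy endosperm library, the closest pair being 25980 and 25652. Zein reads were not taken out first, and they held 13.9% to 26.5% of reads in aleurone and 24.3% to 39.0% in starchy endosperm. Their part in the gene counts was not tested. Sums for neighbouring tissues cover tested markers only. For the basal transfer layer (9 of 10 tested) they were 12.1 to 29.7 CPM in aleurone and 18.8 to 36.6 in starchy endosperm. For embryo and meristem (5 of 9) they were 29.9 to 61.7 and 43.2 to 72.1. Of 5 embryo-surrounding region markers only ESR1 was tested, with at most 2.41 and 0.426. Within these sums, ebe1 of the basal transfer layer held 8.86 to 10.6 and 3.03 to 19.1. The embryo marker wox2A held 14.8 to 49.4 and 13.1 to 61. Of the untested markers, ae3 of the embryo-surrounding region and ns1 and wox5B of the embryo were at 0 in all 6 B73 libraries. The endosperm also expresses some of the 11 pericarp and nucellus markers. The 10 tested summed to 563 to 932 and 372 to 804, and 9 of them had a positive log2 difference (median 0.74, 1.99 without replicate 2). The part of these tissues in the results was not tested. As a check of the genotype labels, Nkd2 lay at 50.8 to 67 CPM in B73 aleurone and 76.7 to 110.2 in B73 starchy endosperm, above 10.9 to 17.5 in nkd aleurone and 42.5 to 51.5 in nkd starchy endosperm. Nkd1 lay at 129 to 168 and 144 to 569 CPM in B73, above 84.5 to 107 and 111 to 127 in nkd.

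The aleurone label was checked against 11 marker genes, all with a read in at least 1 B73 library and 10 of them tested. The list's median log2 difference, aleurone minus starchy endosperm, was 0.71, beside 0.09 over all genes tested, and no member passed the test. The summed level of the 10 tested was 8268, 6333 and 10553 CPM in aleurone, against 750, 2327 and 1041 in starchy endosperm, so replicate 2 was the highest of its group. Most of this sum came from ole1 and vpp1 in every library. The oleosin ole1 had 6961, 2926 and 7276 CPM in aleurone, against 318, 951 and 447 in starchy endosperm. All 3 aleurone libraries lay above, and the log2 difference was 3.32 ± 0.76 (SE). The vacuolar proton pyrophosphatase vpp1 had 1017, 3199 and 2974, against 211, 1178 and 392, and its groups overlapped through replicate 2. The lipid transfer protein gene LTP3 had 13.6, 17.5 and 31.9, against 0.10, 8.82 and 2.65, with no overlap.

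Genes known for aleurone cell fate did not separate the tissues in the same way. dek1, which encodes a calpain protease needed for aleurone to form, averaged 15.8 ± 1.04 CPM in aleurone and 16.1 ± 4.14 in starchy endosperm (SD, n = 3 each). The receptor kinase gene cr4 averaged 12.3 ± 2.28 and 13.3 ± 6.81, and Sal1, an endosomal sorting gene whose loss gives extra aleurone layers, 39.0 ± 9.19 and 35.5 ± 15.1. For these 3 genes the difference was smaller than the spread within the starchy endosperm. The log2 differences were -0.03 ± 0.34, -0.12 ± 0.47 and 0.14 ± 0.36 (SE), and their signs changed between settings. The pigment regulator c1 had 0 reads over the 3 aleurone libraries and 1 read, in replicate 2, over the starchy endosperm.

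The transcription factor genes Nkd1 and Nkd2 were on the starchy endosperm side. Nkd2 had 67, 65.6 and 50.8 CPM in aleurone, against 110.2, 76.7 and 79.1 in starchy endosperm. Its groups did not overlap. The log2 difference of -0.54 ± 0.30 (SE), which became 0.12 without TMM factors, did not pass with or without replicate 2 (adjusted p = 0.383 and 0.286). Nkd1 had 147, 129 and 168, against 337, 144 and 569, with replicate 2 inside the aleurone range. Without replicate 2, Nkd1 fell 3.04-fold in aleurone (log2 -1.60 ± 0.34 SE, adjusted p = 0.0427).

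Oil storage gave the highest median over all 6 libraries among lists with at least 5 tested members. Oil bodies are droplets of triacylglycerol coated with oleosins, and of 8 oil genes 7 were tested. Their median log2 difference was 1.76, and 2.10 over all 8 without replicate 2, beside 0.09 and 0.23 over all genes. All 3 aleurone libraries were higher in 5 of the 7, against 16.2% of all genes, and the log2 differences ran from -0.05 to 3.51. The oleosin gene ole17 had 1311, 310.4 and 913 CPM in aleurone, against 48.7, 154 and 19.5 in starchy endosperm. It was the 1 member called without replicate 2, where it rose 24.8-fold (log2 4.63 ± 1.01 SE, adjusted p = 0.0447). DESeq2 on all 6 libraries called 4 members as higher, against 2.86% of all genes. Its adjusted p was 0.000966 for ole1, 0.00252 for ole17, 0.00723 for fad2 and 0.0161 for ACC1.

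The enzymes of oil synthesis were less uniform. ACC1, an acetyl-CoA carboxylase of fatty acid synthesis, had 179.7, 149 and 145 CPM in aleurone, against 64.0, 88.1 and 43.2 in starchy endosperm. Of the fatty acid desaturase genes, fad2 (GRMZM2G064701) had 123, 111 and 117, against 27.2, 43.2 and 24.5. DGAT1-2, the acyltransferase that completes triacylglycerol, had 20.7, 24.6 and 42.7, against 4.81, 11.3 and 9.86. None of the 3 overlapped between tissues. The desaturase gene FAD2 (GRMZM2G056252) did, with 362, 542 and 357 in aleurone, against 406, 655 and 245 in starchy endosperm and a log2 difference of -0.05 ± 0.45 (SE), which became 0.55 without TMM factors. So did fae2, a fatty acid elongase gene, with 12.5 to 30.6 in aleurone and 11.5 to 23.2 in starchy endosperm.

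**Figure D1:**
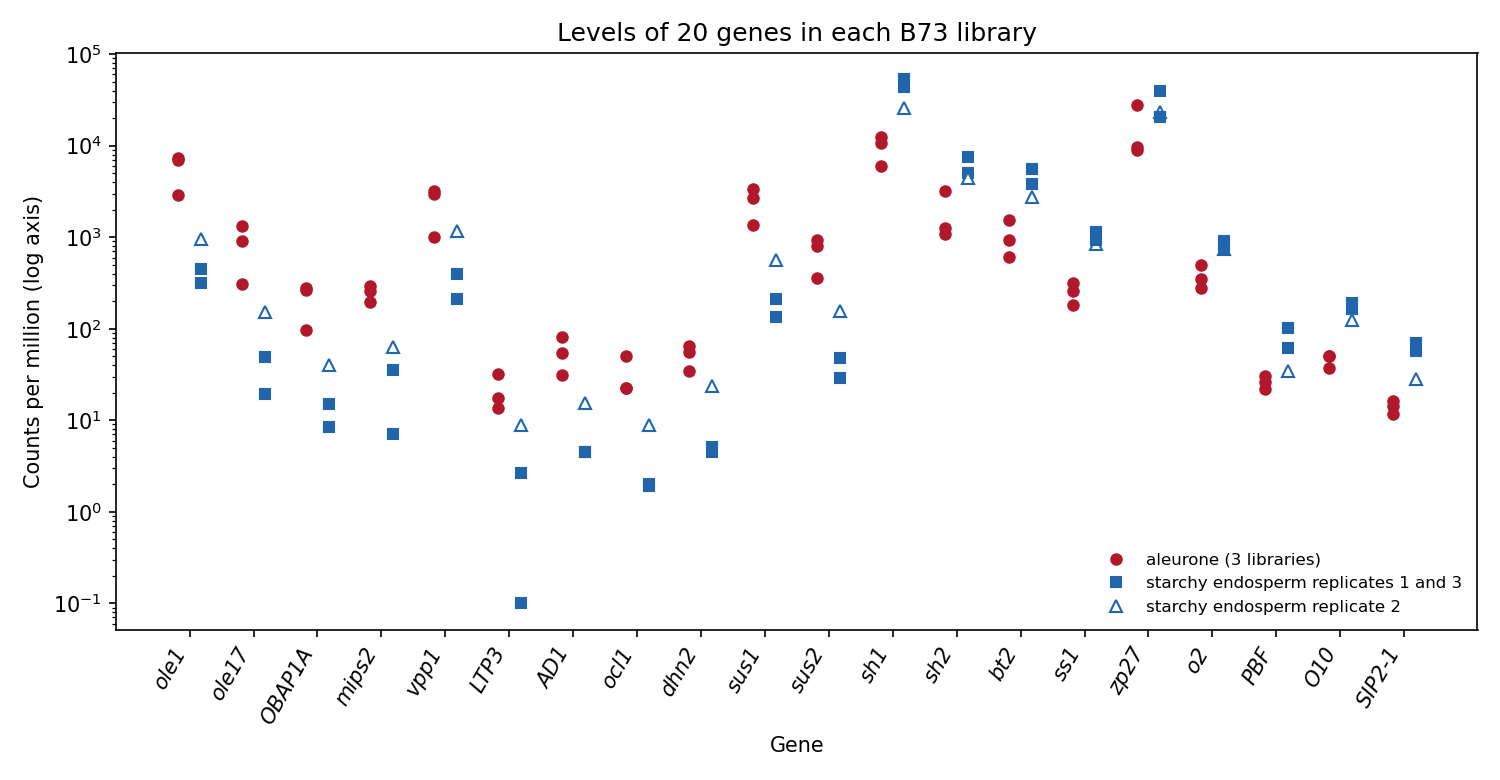
CPM on a log axis for 20 genes of the text in each B73 library, with aleurone (red circles) to the left of starchy endosperm (blue) in each pair and open triangles for starchy endosperm replicate 2. For ole1, sus1 and sus2 the triangle is the starchy endosperm point nearest to aleurone, and the aleurone points of ole1 (2926 to 7276) lie above all starchy endosperm points (318 to 951).

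The rule for single genes required a call over all 6 libraries and so named none. With that condition dropped, 31 named genes were higher and 9 lower without replicate 2. These also had to have a mean of at least 5 CPM over the B73 libraries and no overlap between the tissues. Lack of overlap in them is thus a condition of the choice and not a result. Nkd1, called without replicate 2 but overlapping, is not among them. The examples were chosen after their values were seen. OBAP1A and OBAP2A encode oil body-associated proteins. OBAP1A had 278, 96.9 and 265 CPM in aleurone, against 14.9, 40.1 and 8.53 in starchy endosperm, and rose 18.2-fold without replicate 2 (log2 4.18 ± 0.83 SE, adjusted p = 0.0375). OBAP2A had 912, 1083 and 1439, against 129.6, 449 and 126, and rose 8.98-fold without replicate 2 (log2 3.17 ± 0.69 SE, adjusted p = 0.0447). mips2, a myo-inositol phosphate synthase at the start of phytate synthesis, had 261, 195 and 293, against 35.5, 63.8 and 7.02. mips2 rose 11.7-fold without replicate 2 (adjusted p = 0.0375).

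Further named genes that rose without replicate 2 have other roles. plt1, a phospholipid transfer protein gene, had 7261, 3439 and 5756 CPM in aleurone, against 722, 1574 and 272 in starchy endosperm (11.1-fold, adjusted p = 0.0375). The metallothionein gene mtl2 had 553, 172 and 676, against 35.8, 69.8 and 14.8 (18.5-fold, adjusted p = 0.0411). aoc1, an allene oxide cyclase of jasmonate synthesis, had 626, 699 and 895, against 67, 242 and 64.7 (11.3-fold, adjusted p = 0.0399). In all 3 genes replicate 2 was the highest starchy endosperm library, below every aleurone library as the choice of genes required. The homocysteine methyltransferase gene hmt4 rose 22.6-fold (adjusted p = 0.0391), the small GTPase gene rop6 10.4-fold (0.036) and the AP2/ERF family genes EREB26 and EREB85 19.2-fold and 7.18-fold (0.0307 and 0.0317). Smaller rises were those of the sulphite reductase gene ZmSiR (3.73-fold, adjusted p = 0.0443), the glutathione S-transferase gene gst1 (4.30-fold, 0.035), the dehydroascorbate reductase gene dhar3 (4.26-fold, 0.0416) and the fructokinase gene frk2 (4.09-fold, 0.0411). limma voom over all 6 libraries also called mips2 (adjusted p = 0.0466), plt1 (0.0387), aoc1 (0.0495), ZmSiR (0.0447), gst1 (0.041) and frk2 (0.0387).

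Epidermal genes, named for their part in surface layers of the plant, had a median log2 difference of 1.11 over 9 members and 2.47 without replicate 2. All 3 aleurone libraries were higher in 3 of the 9 (16.2% of all genes). ocl1, an HD-ZIP IV transcription factor gene of the outer cell layer, had 22.6, 22.7 and 49.9 CPM in aleurone, against 2.00, 8.93 and 1.90 in starchy endosperm. It was the 1 member called without replicate 2 (16.3-fold, log2 4.03 ± 0.86 SE, adjusted p = 0.0433). Its relative ocl5 had 37.0, 35.8 and 55.8, against 3.81, 12.9 and 0.19. AD1, an enzyme gene of wax synthesis, had 31.3, 54.1 and 80.3, against 4.51, 15.6 and 4.55, also with no overlap. DESeq2 called these 3 genes over all 6 libraries (adjusted p = 0.0109, 0.0292 and 0.0206). The cuticle gene gl1 overlapped, with 22.8 to 73.9 in aleurone and 0.19 to 25.2 in starchy endosperm, where replicate 2 was the highest. fdh1 (GRMZM5G824600), which joined the list by a name match alone, averaged 108 ± 22.1 and 80.8 ± 22.3 CPM (SD, n = 3 each). Its part in surface layers was not checked.

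Seed maturation genes lay on both sides. The median log2 difference of 10 tested members was 1.03, 1.16 without replicate 2, with all 3 aleurone libraries higher in 6 members (16.2% of all genes) and lower in 1 (8.79%). The dehydrin gene dhn2 had 34.2, 55.0 and 65.3 CPM in aleurone, against 5.11, 23.4 and 4.55 in starchy endosperm, and rose 10.7-fold without replicate 2 (log2 3.42 ± 0.63 SE, adjusted p = 0.035). The storage globulin gene glb1 had 149.6, 36.9 and 118, against 22.1, 12.5 and 4.36, and mlg3 had 14.3, 5.24 and 87.1, against 0.801, 2.31 and 0.379. Neither overlapped, and DESeq2 called both (adjusted p = 0.00218 and 0.00101). The opposite side held glb3, with 1299, 551 and 645 CPM in aleurone, against 3308, 1882 and 1927 in starchy endosperm. Its log2 difference of -1.51 ± 0.67 (SE) did not pass (adjusted p = 0.281). vp1, the B3 transcription factor gene that acts in both maturation and pigment synthesis, had 12.8, 31.2 and 23.5, against 9.32, 11.8 and 8.15, and the catalase gene cat1 had 179.9, 131 and 115, against 85.3, 113 and 60.9.

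Anthocyanin pathway genes had a median log2 difference of 1.32 over 11 tested members and 1.85 without replicate 2, with 8 members positive and 3 negative. All 3 aleurone libraries were higher in 2 of the 11 (16.2% of all genes). The positive members r1 and P were low, averaging 1.42 and 0.388 CPM in aleurone and 0.351 and 0.0523 in starchy endosperm. The flavanone hydroxylase gene fht1 had 22.3, 21.0 and 27.9 CPM in aleurone, against 2.70, 8.30 and 1.90 in starchy endosperm, and was the 1 member called without replicate 2 (10.2-fold, adjusted p = 0.0491). pac1 (GRMZM2G058292), a WD40 regulator gene, had 24.5, 16 and 23.2, against 10.1, 12 and 3.03. Both were apart in all libraries. The reductase gene A1 had 13.1, 30.1 and 41.7, against 5.51, 17.3 and 0.379, and the next enzyme gene a2 had 3.12, 26.9 and 16.2, against 0.00, 12 and 0.00. In A1 and a2 the overlap came from replicate 2, as it did for the chalcone isomerase gene chi1 (16.5 to 26.2 in aleurone and 5.31 to 22.8 in starchy endosperm). The negative members were bz2, whp1 and c2, all of which overlapped, and bz2 and c2 turned to 0.16 and 0.04 without TMM factors. bz2, a glutathione S-transferase gene, had 6.96, 47.7 and 19.0, against 30.0, 29.3 and 56.1. The chalcone synthase genes whp1 and c2 were low, whp1 with at most 0.10 in aleurone and 0.00, 0.202 and 17.3 in starchy endosperm, and c2 with 0.452 to 2.44 and 0.19 to 3.21.

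On the starchy endosperm side, all 12 marker genes had a negative log2 difference, 11 of them also without TMM factors. Their median log2 difference was -1.60, -1.86 without replicate 2, and 7 of the 12 did not overlap (8.79% of all genes were lower in all 3 aleurone libraries). None was absent from aleurone. O10, needed for the ordered packing of zeins in protein bodies, had 50.3, 50.8 and 37.0 CPM in aleurone, against 192, 125 and 166 in starchy endosperm. It fell 3.87-fold without replicate 2 (log2 -1.95 ± 0.42 SE, adjusted p = 0.0443), and limma voom called it over all 6 libraries (adjusted p = 0.0447). FL1, another protein body gene, had 63.4, 23.8 and 32.4, against 141, 103 and 211, with no overlap.

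Zein transcripts were abundant in both tissues. They took 26.5%, 13.9% and 16.8% of gene reads in aleurone replicates 1, 2 and 3, against 38.3%, 24.3% and 39.0% in starchy endosperm. The means were 19.1% ± 6.61 and 33.9% ± 8.32 (SD, n = 3 each), a difference of -14.8 percentage points (two-sided exact permutation test, p = 0.2, smallest possible 0.1). Aleurone replicate 1 lay above starchy endosperm replicate 2, and no other pair of libraries crossed. All 25 zein genes tested had a negative log2 difference, 24 of them also without TMM factors, where zp15 turned to 0.33. The median was -1.36, -1.76 without replicate 2, and the range -3.64 to -0.23. Of these, 5 did not overlap (8.79% of all genes were lower in all 3 aleurone libraries), and none was called with or without replicate 2. As the alpha-zeins, with symbols beginning with z1, include near-identical copies, reads of their single members are uncertain.

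The types of zein are given by examples. The alpha-zein z1A1_3/z1A1_4 had 118294, 23796 and 46972 CPM in aleurone, against 239645, 121929 and 227272 in starchy endosperm (log2 difference -1.64 ± 1.04 SE). The beta-zein zp15 had 17655, 5453 and 8559, against 16479, 11023 and 9733 (-0.23 ± 0.63). The gamma-zein zp27 had 27995, 8957 and 9779.6, against 39318, 23215 and 20710.4 (-0.83 ± 0.60). The groups of z1A1_3/z1A1_4 were apart, but most other alpha-zeins overlapped. For example, z1A2_1 had 16032 to 31394 CPM in aleurone and 27702 to 94639 in starchy endosperm. The groups of zp15 and zp27 overlapped through aleurone replicate 1. Another gamma-zein, zp16, had 9691, 3492 and 3343, against 23849.6, 8799 and 21355 (-1.71 ± 0.68), and overlapped through the same library. The delta-zein dzs18 had 6068, 7867 and 7388, against 7909, 10732 and 18493 (-0.80 ± 0.60), with no overlap. Differences between zein types were not tested.

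Starch synthesis genes stood on both sides. Sucrose entering the endosperm is cleaved by sucrose synthase, turned into ADP-glucose by ADP-glucose pyrophosphorylase, carried into the amyloplast and built into starch. Of 20 genes, 16 had a negative log2 difference, 14 without TMM factors, and the median was -1.06, -1.25 without replicate 2. All 3 aleurone libraries were lower in 11 and higher in 3 (8.79% and 16.2% of all genes). Without replicate 2 edgeR called 3, sus1 and sus2 as higher and sugary2 as lower (1.21% and 0.378% of all genes). DESeq2 over all 6 libraries called 2 as higher and 7 as lower (2.86% and 2.62% of all genes).

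The sucrose synthases divided by gene. sh1 had 12369, 10775 and 5970.1 CPM in aleurone, against 44226, 26038 and 53239 in starchy endosperm (log2 -2.08 ± 0.69 SE; -2.32 ± 0.74 without replicate 2, adjusted p = 0.0999). sus1 had 2715, 1345 and 3392, against 135, 561 and 209.7, and rose 14.5-fold without replicate 2 (log2 3.86 ± 0.80 SE, adjusted p = 0.0411). sus2 had 795, 361 and 924, against 28.6, 158 and 48.0, and rose 18.2-fold without replicate 2 (log2 4.19 ± 0.93 SE, adjusted p = 0.0472). None of the 3 overlapped, and replicate 2 was the starchy endosperm library nearest to aleurone in each. limma voom over all 6 libraries also called sus2 (adjusted p = 0.0471).

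Downstream of sucrose cleavage most members had negative log2 differences. sh2, the large subunit of ADP-glucose pyrophosphorylase, had 3202, 1097 and 1252 CPM in aleurone, against 5084, 4450.0 and 7563 in starchy endosperm. Its small subunit bt2 had 1527, 922 and 606, against 5530.4, 2726 and 3853, and the amyloplast ADP-glucose transporter bt1 had 1428, 1584 and 879, against 7113, 3415 and 3200.4. All 3 were apart in every library, with log2 differences of -1.62 ± 0.52, -1.99 ± 0.58 and -1.82 ± 0.52 (SE), and DESeq2 called each (adjusted p = 0.0226, 0.015 and 0.0133). Of the starch synthases, ss1 had 257, 313 and 181, against 1134, 851 and 922 (log2 -1.95 ± 0.42 SE; limma voom adjusted p = 0.0387 over all 6 libraries). sugary2 had 181, 128 and 114, against 426, 283 and 528, and fell 3.36-fold without replicate 2 (adjusted p = 0.0493). du1 had 256, 168 and 135, against 478, 325 and 448, again with no overlap. The granule-bound starch synthase wx1 overlapped, with 3516, 1087 and 1029 against 5411, 1987 and 2068, through aleurone replicate 1. The branching enzyme ae1 (GRMZM2G032628) averaged 1432 ± 535 CPM in aleurone and 2764 ± 656 in starchy endosperm (SD, n = 3 each). The third gene higher in every aleurone library was the debranching enzyme gene iso3, with 3.64, 4.15 and 5.47 CPM, against 2.80, 2.47 and 1.71 in starchy endosperm (log2 0.92 ± 0.53 SE). Its relative iso2 had at most 0.467 CPM in aleurone and 0.202 in starchy endosperm.

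Of 11 endosperm transcription factors, 3 were lower (8.79% of all genes) and 1, vp1, higher (16.2%) in all 3 aleurone libraries. The list median was a log2 difference of -0.34, which turned to 0.31 when no TMM factors were used. o2, the bZIP activator of zein genes, had 496, 353 and 277 CPM in aleurone, against 918, 736 and 768 in starchy endosperm. PBF (GRMZM2G146283), the DOF factor that binds with it, had 30.2, 25.9 and 22.1, against 102, 34.6 and 62.2. Both were apart in all libraries, with log2 differences of -1.11 ± 0.43 and -1.35 ± 0.40 (SE), and DESeq2 called PBF (adjusted p = 0.029). A further DOF gene, DOF36, had 108, 77.1 and 61.7, against 99.2, 215 and 253, where starchy endosperm replicate 1 lay inside the aleurone range.

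Genes of low-oxygen metabolism, which keep glycolysis running where respiration is limited, gave a negative log2 difference in 5 of 7 members, with a median of -1.02, -0.61 without replicate 2. All 3 aleurone libraries were lower in 3 (8.79% of all genes) and higher in 1 (16.2%). The glyceraldehyde-3-phosphate dehydrogenase genes gpc3 and gpc4 were both apart in every library. gpc3 had 439, 329.6 and 242 CPM in aleurone, against 2202, 883 and 885 in starchy endosperm, and gpc4 had 956, 481 and 425, against 2301, 1406 and 971. The pyruvate decarboxylase genes stood on opposite sides. pdc2 had 101, 93.2 and 58.0, against 269.8, 347 and 189, and pdc3 had 196, 125 and 288, against 51.6, 92.7 and 76.4. Neither pdc gene overlapped between tissues, and DESeq2 called both (adjusted p = 0.0311 and 0.0189). The enolase gene eno1 and the alcohol dehydrogenase gene adh1 overlapped, at 2131 to 5262 and 1054 to 1807 in aleurone and 4556 to 9771 and 1797 to 4093 in starchy endosperm, with replicate 2 the highest for both.

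Aquaporins, the channels for water and small solutes, had a positive log2 difference in 13 of 19 tested members. The median was 0.65, with all 3 aleurone libraries higher in 6 (16.2% of all genes) and lower in 1 (8.79%). The tonoplast channel gene TIP2-3 had 70.2, 44.2 and 42.3 CPM in aleurone, against 6.81, 13.7 and 2.09 in starchy endosperm, and TIP4-4 had 23.8, 19.6 and 32.8, against 3.00, 4.51 and 0.379. TIP3-1, a seed form, had 10.9, 5.96 and 13.2, against 4.11, 3.63 and 1.90. These 3 were higher in every aleurone library. The single lower one, SIP2-1, of the small basic subfamily, had 14.3, 16.4 and 11.7, against 57.2, 27.9 and 69.4, and fell 4.46-fold without replicate 2 (log2 -2.16 ± 0.38 SE, adjusted p = 0.035). The plasma membrane form PIP2-1 overlapped at 585 to 1789 in aleurone and 1559 to 3653 in starchy endosperm.

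The 9 genes of carotenoid and abscisic acid synthesis had a median log2 difference of 0.52, with 5 positive. All 3 aleurone libraries were higher in 3 (16.2% of all genes) and lower in 2 (8.79%), and edgeR called none with or without replicate 2. The lower pair were y1, a phytoene synthase gene, and HYD3, a carotene hydroxylase gene. y1 had 6.60, 3.97 and 5.71 CPM, against 16.6, 12.1 and 27.5 in starchy endosperm, and HYD3 had 209, 135 and 101, against 382, 329 and 290.5. DESeq2 called both (adjusted p = 0.0359 and 0.0211). The higher ones were psy2, another phytoene synthase gene, at 3.98 to 11.6 in aleurone and 2.10 to 3.60 in starchy endosperm, AO1 at 8.13 to 15.8 and 4.74 to 6.61, and vp14, a dioxygenase gene of abscisic acid synthesis, at 1.06 to 5.31 and 0.00 to 0.516.

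The lipoxygenase gene lox1 had 38.0, 67.9 and 75.4, against 22.7, 35.4 and 22.6, and the catalase gene cat2 had 31.2, 27.7 and 99.9, against 6.81, 13.3 and 5.88. For fer1, an iron storage ferritin gene, the values were 339, 188 and 161 against 148, 144 and 61.1. The last 3 were higher in every aleurone library, and none passed edgeR's test. Of 28 ribosomal protein genes, 23 had a negative log2 difference (median -0.54) and 10 without TMM factors (median 0.09), and none was called with or without replicate 2. The median was -0.68 over 9 heat shock protein genes, 0.49 over 14 cell cycle genes, 1.02 over 11 lipoxygenase and catalase genes and 0.68 over 6 phytate and mineral storage genes, with no call by edgeR in any of these lists.

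A few named genes outside the lists fell without replicate 2. These were aprl9 (8.72-fold, adjusted p = 0.036), ZAR1 (7.80-fold, 0.035), TCP7 of the TCP transcription factor family (4.11-fold, 0.0456), S6K, a ribosomal protein S6 kinase gene (3.60-fold, 0.0486), ufo1 (3.54-fold, 0.0461) and CAPIP1 (3.13-fold, 0.0389). aprl9 had 14.5, 18.3 and 15.2 CPM in aleurone, against 45.5, 25.0 and 236 in starchy endosperm, so its fold rests largely on starchy endosperm replicate 3. ZAR1 had 3.56, 6.59 and 3.91 CPM in aleurone, against 26.4, 16.2 and 46.6 in starchy endosperm. S6K had 73, 70.6 and 54.5, against 329.6, 75.6 and 148. No overlap was again a condition of the choice. Replicate 2 lay just above the aleurone range for S6K and farther from it for ZAR1.

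**Figure D2:**
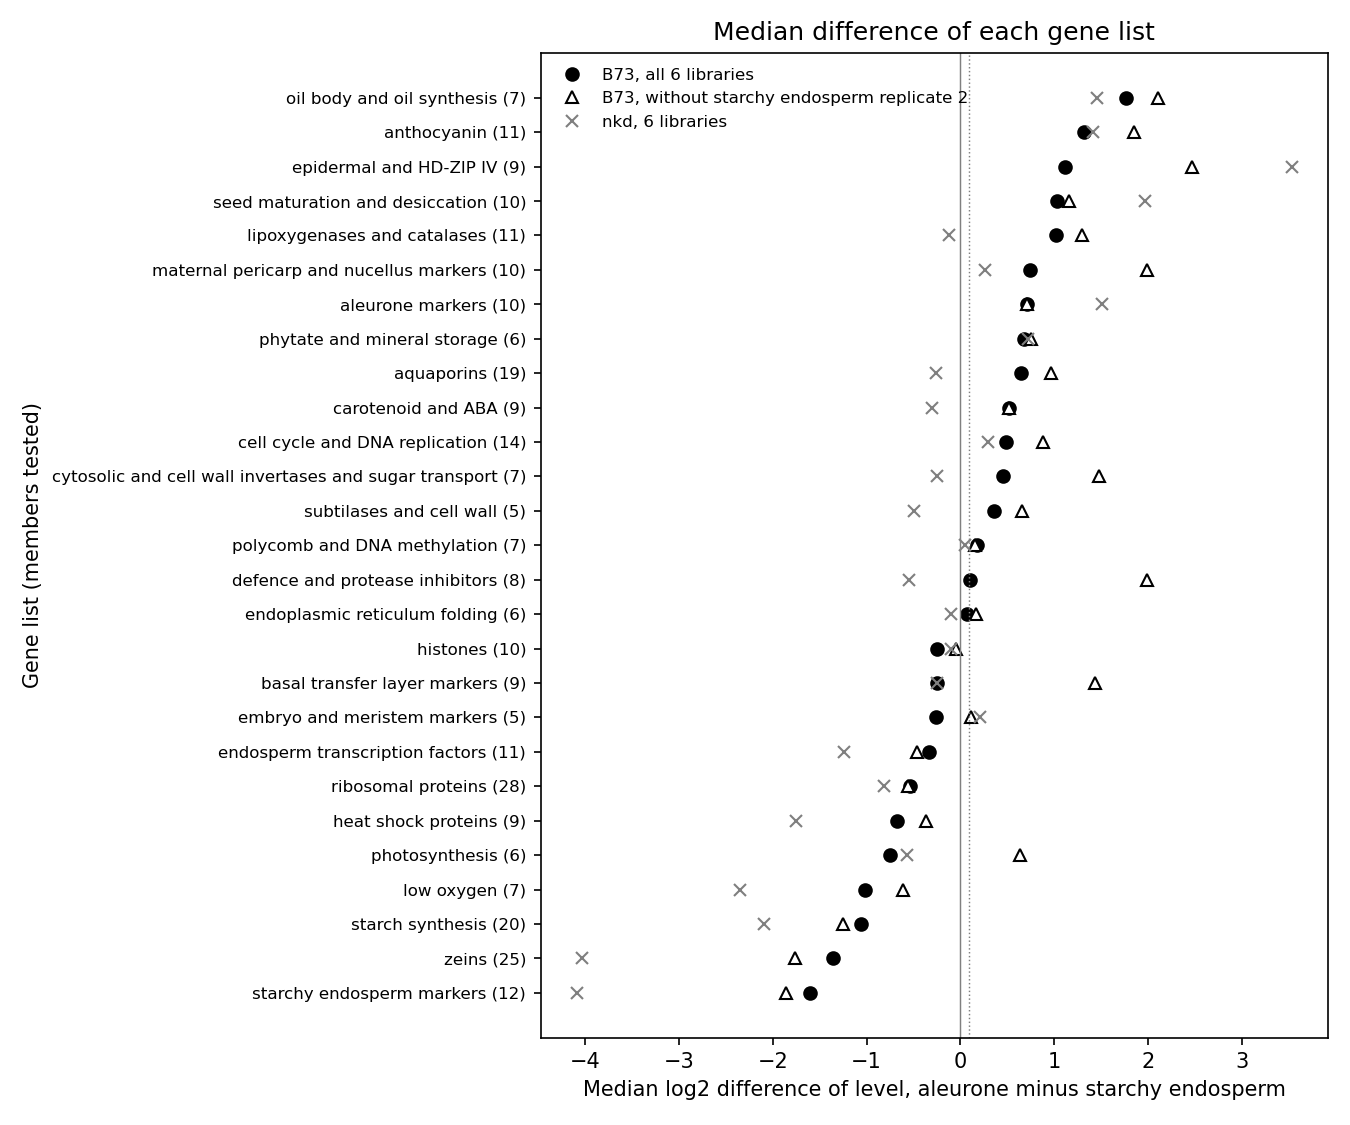
Median log2 difference of level, aleurone minus starchy endosperm, for each gene list with at least 5 tested members, in B73 with all 6 libraries (filled circles), in B73 without starchy endosperm replicate 2 (open triangles) and in nkd (crosses). The dotted line marks the median of all B73 genes (0.09) over all 6 libraries. The filled circles run between -1.60 for starchy endosperm markers and 1.76 for oil genes.

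How starchy endosperm replicate 2 stood between the tissues was described in the genes called without it. The library was chosen for its likeness to aleurone and the genes for the distance of replicates 1 and 3 from aleurone, so a place towards aleurone follows largely from these choices and was not tested. On a log2 scale where 0 is the mean of starchy endosperm replicates 1 and 3 and 1 is the aleurone mean, its median place was 0.64 over the 321 higher genes, with quartiles of 0.51 and 0.77. For the 94 lower genes with a level over all 12 libraries it was 0.69, with quartiles of 0.44 and 0.97. Its zein share, aleurone marker sum and oil gene sum also stood on the aleurone side of its group. It had 1926 CPM over the 7 tested oil genes, against 879.5 and 806 in replicates 1 and 3. The marker and oil sums both contain ole1, at 951 CPM in replicate 2, and are not separate measures. The part of aleurone cells or of any handling step in that library was not tested.

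**Figure D3:**
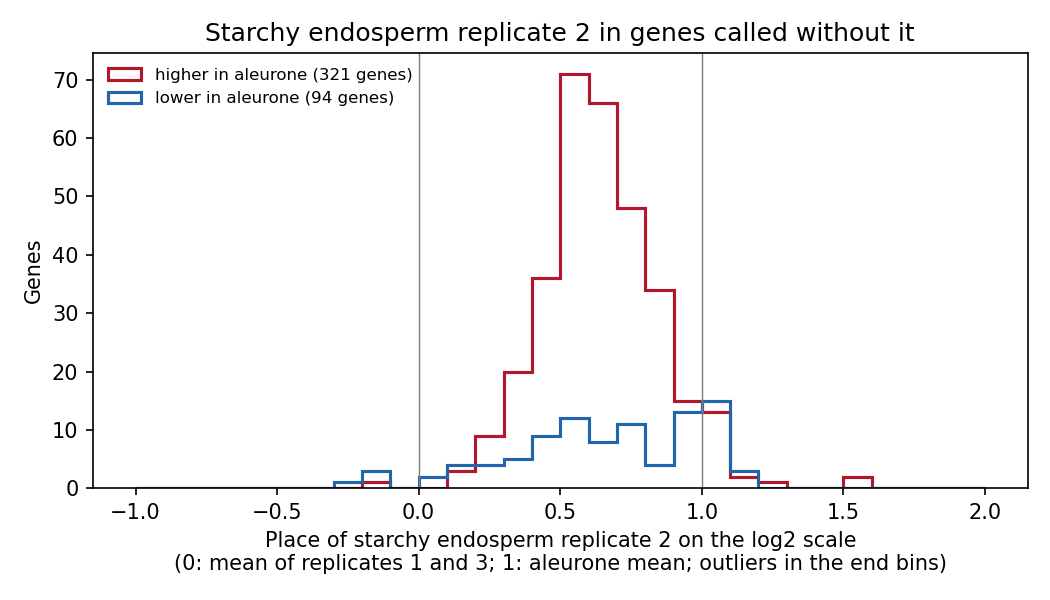
Number of genes by the place of starchy endosperm replicate 2 between the mean of replicates 1 and 3 (0) and the aleurone mean (1) on the log2 scale, for genes called higher (red) or lower (blue) in aleurone without it. The medians are 0.64 and 0.69, a description of a library and of genes that were both chosen on these values.

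The nkd libraries gave gene sets that no B73 level had chosen. Between nkd aleurone and nkd starchy endosperm, edgeR called 1797 of 25499 genes (7.05%), 895 higher (3.51%) and 902 lower (3.54%) in aleurone, in a fit that shares its estimate of spread with the B73 libraries. Of the 895, 836 (93.4%) had a positive B73 difference, with a median log2 difference of 1.59 in B73 and 3.05 in nkd, beside 53.6% positive and a median of 0.09 over all genes. All 3 B73 aleurone libraries were higher in 603 of them (67.4%, against 16.2% of all genes). Of the 902, 823 (91.2%) had a negative B73 difference, with a median of -0.99 in B73 and -2.64 in nkd, and 447 (49.6%) were lower in all 3 B73 aleurone libraries (8.79% of all genes). Set against the mean of the B73 aleurone libraries, the median log2 level of the 895 genes was -0.13, -0.13 and 0.26 in aleurone replicates 1, 2 and 3, and -1.61, -0.90 and -1.52 in starchy endosperm. For the 902 genes it was 0.22, -0.01 and -0.21 in aleurone and 1.14, 0.82 and 0.86 in starchy endosperm. Every B73 starchy endosperm library thus lay on its own side of every aleurone library in both sets, and replicate 2 was the nearest to aleurone. Across 13544 genes with a mean of at least 5 CPM in B73, the log2 differences of the 2 genotypes correlated at r = 0.54 and shared their sign in 70.3%. These are descriptions over genes, which are not independent, and same-numbered libraries of both genotypes shared a flow cell.

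**Figure D4:**
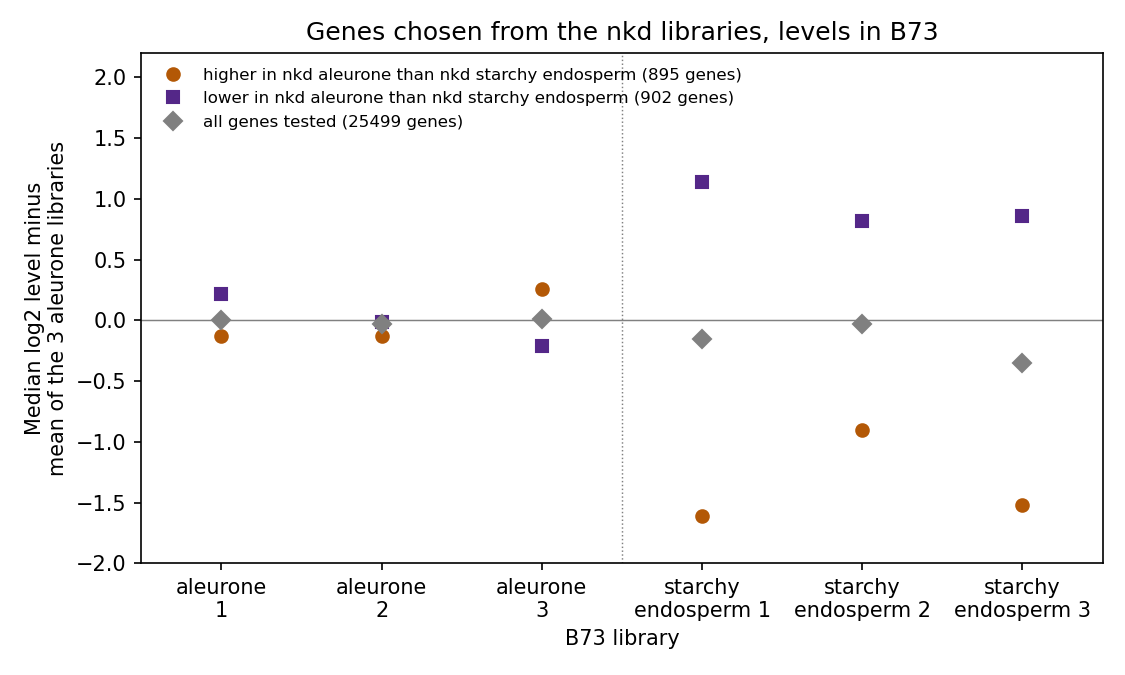
Median log2 level in each B73 library, relative to the mean of the 3 B73 aleurone libraries, for 895 genes higher and 902 genes lower in nkd aleurone than in nkd starchy endosperm and for all 25499 genes tested. The starchy endosperm libraries lie at -1.61, -0.90 and -1.52 for the first set and at 1.14, 0.82 and 0.86 for the second.

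The log2 difference between tissues lay nearer to 0 in B73 than in nkd for several storage genes, and edgeR's test of the difference passed for none. In edgeR 0 of 25499 genes (0.0%) had an adjusted p under 0.05 for B73 minus nkd, the lowest being 0.173, and 2030 had an unadjusted p under 0.05. DESeq2 called 186. The zein list had a median log2 difference of -1.36 in B73 and -4.03 in nkd, and the starchy endosperm markers -1.60 and -4.09. zp27 stood at -0.83 in B73 and -4.03 in nkd (adjusted p of the difference 0.379), bt2 at -1.99 and -5.02 (0.379), wx1 at -0.75 and -4.34 (0.379) and sh2 at -1.62 and -4.85 (0.343). vp1 stood at 1.19 in B73 and 5.5 in nkd (0.379). Unlike these, the aquaporin gene TIP2-3 had opposite signs and was not nearer to 0 in B73, at 2.76 in B73 and -2.16 in nkd (0.379). The oleosin genes ole1 and ole17 stood at 3.32 and 3.51 in B73 and at 4.31 and 4.66 in nkd (0.85 and 0.848). Zeins took 13.9% to 26.5% of gene reads in B73 aleurone, against 0.173% to 0.901% in nkd aleurone, and 24.3% to 39.0% in B73 starchy endosperm, against 4.03% to 10.7% in nkd starchy endosperm.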

How the data were processed

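Aleurone and starchy endosperm libraries came in separate tables, in which the authors deposited signal values for 63540 transcripts of 39656 genes. FastQC, TopHat and DESeq are named in the submitters' processing notes, with no version. The sources used here do not give the genome build, the annotation, strand handling or the treatment of multi-mapped reads. All values (100%) of every library were whole multiples of the smallest step, to a tolerance of 0.01. Each signal value as deposited is thus the number of reads over a constant of that library and table, and division by the step gave back whole reads. Where a gene had several transcripts, the one with the largest mean over libraries stood for it.

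Reads were tested with edgeR 4.0.16 (quasi-likelihood, TMM factors, filterByExpr) in R 4.3.3 over all 12 libraries and 4 groups, with two-sided p-values adjusted by Benjamini-Hochberg and called under 0.05. Alternatives used DESeq2 1.42.0, limma 3.58.1 (voom), other scalings, filters and sets of libraries, and sums over transcripts. A second script language (Python 3.11.15, scipy) gave the permutation test, the correlations on log2(CPM + 0.5) and the plots. The edgeR script was tested on simulated data.

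Names came from a RefSeq table of Zm-B73-REFERENCE-NAM-5.0, which matched 18775 genes (47.3%). Most of its symbols are placeholders, so short synonyms were also taken as names, a choice made after that table was seen. The 31 lists hold 305 genes, 276 of them tested. Members and lists were chosen with earlier results of these data known. Named genes were up to 4 or 8 members of a list by mean level over the B73 libraries, and members that decide a count. The 10 largest rises and falls were also sought. They needed a mean of at least 5 CPM, no overlap, and a call both over all 6 libraries and without replicate 2, which none had. Sequences were not used here.

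Libraries with the same replicate number count as pairs, since per the labels they were run on the same flow cell. The main fit and the permutation test of the zein share did not use these pairs. The pairs entered only through the replicate block, as an alternative setting. The deviations of same-numbered aleurone and starchy endosperm libraries from their group means correlated across genes at 0.205, 0.079 and 0.12.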

Additional observations from a re-analysis of the deposited data

How the results depend on the processing

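Over all 6 B73 libraries the count of called genes was 0 under DESeq2 size factors, no TMM factors, no filter, a minimum mean of 1 CPM, sums over transcripts and the replicate block (flow cell). It was 2 in a fit of the 6 B73 libraries alone (LOC100192775 and LOC100274842, both lower in aleurone and named after their values were seen), 55 with limma voom and 1395 with DESeq2, and list members called numbered 3 and 35 in the last pair. Leaving out 1 B73 library gave 0 to 421 genes and 0 to 10 list members, the upper end being without starchy endosperm replicate 2. The other settings without that replicate were chosen after seeing the data. They gave 990 genes and 38 list members in the B73 libraries alone, 341 and 8 with DESeq2 size factors (66.3% of calls higher in aleurone, against 76.2% with TMM), 2508 and 41 without TMM factors (96.5% higher), 3447 and 67 with DESeq2, 32 and 0 with limma voom, and 0 with the replicate block or with an aleurone library also left out. Leaving out TMM factors put the median log2 difference of all genes at 0.71, against 0.09 with them. The difference between B73 and nkd called 0 genes, also with the replicate block and without replicate 2, and 186 with DESeq2. The zein share differed by -12.5 points with summed transcripts and -14.1 with alpha-zeins alone. Log2 differences that changed sign belonged to genes that were not called, and the cause was not tested. Without TMM factors these were Nkd2 (0.12), dek1 (0.62), cr4 (0.56), FAD2 (0.55), bz2 (0.16), c2 (0.04) and zp15 (0.33), and with limma voom cr4 (0.19) and FAD2 (0.01). FAD2 stood at 0.0 with the replicate block. Without replicate 2 and without TMM factors they were Nkd2 (0.18), dek1 (0.88), cr4 (0.78), FAD2 (1.21), bz2 (0.13), c2 (1.75), ae1 (0.02), zp15 (0.40), eno1 (0.32) and adh1 (0.16). Without replicate 2 they were also Sal1 at -0.17 with DESeq2 and with its size factors and at -0.16 in the B73 libraries alone, and cr4 at 0.35 with limma voom and 0.05 with the replicate block. FAD2 and c2 then stood at 0.26 and 1.01 with DESeq2, 0.26 and 0.98 with its size factors, 0.39 and 0.58 with limma voom, 0.25 and 0.96 in the B73 libraries alone and 0.51 and 1.77 with the replicate block. Over all fits that left out libraries, the ranges were -0.23 to 0.54 for Sal1, -0.22 to 0.12 for dek1, -0.45 to 0.27 for cr4, -0.34 to 0.42 for FAD2, -1.29 to 1.45 for c2 and -0.95 to 0.09 for zp15.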
